A study of Mus musculus with 24 samples.

Results

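The forebrain regulators Hesx1, Fezf1, Fezf2, Nr2e1, Otx1, Emx2 and Nkx2-1 were followed through the first days of mouse optic vesicle organoid culture. They were taken as the rows of the expression table whose gene symbol was 1 of these 7 names, which gave 7 genes of 49705 entries, and all 7 passed the filter on low values. The organoids were grown from Rx-GFP K/I EB5 cells, a single mouse embryonic stem cell line with green fluorescent protein (GFP) inserted at the Rax locus, so every group carried the reporter. On day 0, 4500 cells were seeded per low-adhesion well in medium with 1.5% serum replacement as the labels give it, and Matrigel was brought to 2% on day 1. Each library came from 24 pooled organoids and was poly(A) RNA-seq of live single cells. There were 8 groups of 3 libraries. Days 0, 1, 2 and 3 held all live cells, with day 0 labelled as having no treatment and later days as differentiation, and days 4 and 5 were each sorted into a GFP-positive and a GFP-negative population. The gates were wide, so the GFP-negative libraries also held cells with a low GFP signal and the GFP-positive ones held cells of moderate as well as high signal. The labels call the cells ESC at every time, although the summed level of 7 pluripotent markers was 157647 to 234553 on day 0 and 437 to 636 in GFP-positive cells on day 5.

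In the embryo the anterior neural plate becomes the forebrain, and a field within it becomes the eyes. Transcription factors with overlapping territories divide it into telencephalon, eye field, hypothalamus and diencephalon. Several of them are repressors: Hesx1, a paired-like homeodomain protein, and the zinc-finger proteins Fezf1 and Fezf2 act with Groucho/Tle corepressors, and Nr2e1, an orphan nuclear receptor also called Tlx, holds neural and retinal progenitors in a dividing state. Otx1 and Emx2 are homeodomain proteins of the anterior brain and dorsal telencephalon, and Nkx2-1 is the homeodomain protein that marks hypothalamus and ventral telencephalon.

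The 7 genes lie on 6 chromosomes (mm10): Hesx1 at chr14:26994416-27002329 and Fezf2 at chr14:12342094-12348189, Fezf1 at chr6:23245044-23248362, Nr2e1 at chr10:42561963-42583632, Otx1 at chr11:21994764-22002897, Emx2 at chr19:59458372-59465357 and Nkx2-1 at chr12:56531958-56536908. Their identifiers in the same order are ENSMUSG00000040726, ENSMUSG00000021743, ENSMUSG00000029697, ENSMUSG00000019803, ENSMUSG00000005917, ENSMUSG00000043969 and ENSMUSG00000001496, and all are protein coding in GENCODE M21. Hesx1 and Emx2 are on the plus strand and the other 5 on the minus strand. RefSeq promoter windows of the GRCm38.p6 build, 250 bases before to 50 after a start, were found for 6 of the 7, the exception being Otx1. The windows of Fezf1 and Fezf2 are shown because these paralogs divided differently between the sorted populations, and those of Nr2e1 and Emx2 because each held a match to a motif searched, in capitals. They are written 5′ to 3′ on the gene's strand, at chr6:23248215-23248514, chr14:12345816-12346115, chr10:42583541-42583840 and chr19:59458440-59458739 in the order printed. In all 4 the RefSeq start lies inside the annotated gene span.
Fezf1: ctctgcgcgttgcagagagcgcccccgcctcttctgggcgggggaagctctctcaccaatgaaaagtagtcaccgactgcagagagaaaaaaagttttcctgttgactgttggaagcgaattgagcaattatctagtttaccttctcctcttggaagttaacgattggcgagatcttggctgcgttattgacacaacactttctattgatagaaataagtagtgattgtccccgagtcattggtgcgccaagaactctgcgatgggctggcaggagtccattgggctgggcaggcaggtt
Fezf2: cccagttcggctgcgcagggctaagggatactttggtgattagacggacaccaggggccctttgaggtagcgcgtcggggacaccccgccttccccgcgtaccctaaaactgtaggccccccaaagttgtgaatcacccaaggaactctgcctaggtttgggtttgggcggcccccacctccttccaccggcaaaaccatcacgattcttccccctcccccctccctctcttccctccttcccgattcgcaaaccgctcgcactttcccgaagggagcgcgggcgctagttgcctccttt
Nr2e1: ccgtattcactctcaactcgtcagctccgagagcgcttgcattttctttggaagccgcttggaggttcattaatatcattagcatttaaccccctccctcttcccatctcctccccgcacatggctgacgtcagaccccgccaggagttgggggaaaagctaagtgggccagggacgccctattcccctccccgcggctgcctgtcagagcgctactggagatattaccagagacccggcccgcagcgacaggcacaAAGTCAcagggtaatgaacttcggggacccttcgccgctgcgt
Emx2: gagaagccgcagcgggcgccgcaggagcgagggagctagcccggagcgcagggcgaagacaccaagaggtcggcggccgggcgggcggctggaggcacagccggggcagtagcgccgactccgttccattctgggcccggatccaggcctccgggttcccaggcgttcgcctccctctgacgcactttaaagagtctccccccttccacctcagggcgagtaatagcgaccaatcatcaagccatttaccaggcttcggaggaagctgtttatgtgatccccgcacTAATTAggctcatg

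4 short motifs were searched on both strands. AAGTCA, the hexamer that Nr2e1 itself binds, was in the Nr2e1 window at position 8 after the start and in 15.12% of all 32851 windows. TAATTA, a paired homeodomain core, was in the Emx2 window at position 37 and in 5.291% of all windows. AACAAT, a SOX core, was in the Nkx2-1 window 114 bases before the start and in 10.72% of all. TAATCC, the OTX core, was in none of the 6 windows and in 7.062% of all. The Fezf1, Fezf2 and Hesx1 windows held none of the 4. A match in such a window is a description of the letters and says nothing of binding.

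Values are the authors' normalized counts per gene and library. Their totals ran from 39849111 to 51587535 per library, and 1 read was worth an estimated 0.798 to 1.39 normalized counts, so a value near 1 is about a single read. Tests used limma on log2(normalized count + 1) over 21005 genes and all 24 libraries with Benjamini-Hochberg adjustment, and calls needed an absolute log2 change above 1.5 together with an adjusted p below 0.001. A log2 value on this scale understates changes of genes near 0. The first day 0 library stood apart, with rank correlations down to 0.953 against the others of its day, where pairs in the other groups reached at least 0.979. Rax, the reporter gene, was 9559 ± 436 (SD, n = 3) in GFP-positive against 975 ± 38.4 in GFP-negative libraries on day 4 and 8608 ± 463 against 447 ± 60.6 on day 5, so the sort followed its label.

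Hesx1 was the first of the 7 to become abundant. It was already measurable in the starting cells, at 118, 109 and 74.0 normalized counts on day 0, 137, 114 and 132 on day 1 and 90.9, 80.3 and 82.8 on day 2. On day 3 it stood at 836, 1332 and 1108, above every earlier library. On day 4 it was 5950, 5061 and 4260 in the GFP-positive and 3102, 2803 and 3045 in the GFP-negative libraries. By day 5 it was 728, 845 and 703 in the GFP-positive and 436, 307 and 278 in the GFP-negative libraries, below every day 4 library. Its mean was 12.9-fold higher on day 3 than on day 2 and a further 4.66-fold higher on day 4 in the GFP-positive libraries.

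Fezf1, a close relative of Fezf2 that acts with it in forebrain patterning, was near the detection limit until day 2. It was 4.19, 2.53 and 0.888 on day 0, 0, 0.918 and 4.34 on day 1, and 1.15, 0 and 0.878 on day 2. On day 3 it was 23.2, 26.1 and 11.4. Day 4 gave 7576, 7450 and 6670 in the GFP-positive and 1713, 1967 and 1499 in the GFP-negative libraries. Of the 7 genes it showed the highest normalized count in the GFP-positive day 4 group. Day 5 gave 3889, 4108 and 3879 in the GFP-positive and 948, 888 and 958 in the GFP-negative libraries. The order of its 4 sorted groups was GFP-positive day 4, GFP-positive day 5, GFP-negative day 4, GFP-negative day 5, and no library of one overlapped the next.

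Fezf2, which later specifies deep-layer cortical projection neurons, came up on the same days as Fezf1 but with another division between the sorted populations. It was 17.9, 5.76 and 5.25 on day 0, 1.29, 2.09 and 3.21 on day 1, 5.97, 4.72 and 1.73 on day 2 and 22.4, 35.2 and 21.8 on day 3. On day 4 it was 2449, 1962 and 2255 in the GFP-positive and 1682, 1827 and 1776 in the GFP-negative libraries. On day 5 it was 1558, 1990 and 1260 in the GFP-positive and 2447, 2510 and 2079 in the GFP-negative libraries. GFP-positive libraries were the higher on day 4 and the lower on day 5, without overlap on either day.

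Otx1 was low but present from the start, and its group mean was higher on each later day up to day 4. It was 6.64, 31.1 and 13.5 on day 0, 33.2, 14.0 and 22.4 on day 1, 51.8, 51.0 and 46.9 on day 2 and 94.1, 105 and 92.5 on day 3. Day 4 gave 3557, 4107 and 4367 in the GFP-positive and 2790, 3663 and 3243 in the GFP-negative libraries, which overlapped. Day 5 gave 2169, 2687 and 2052 in the GFP-positive and 5863, 6116 and 6249 in the GFP-negative libraries. The GFP-negative group of day 5 was the highest of all 8, with each of its libraries above every other library.

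Emx2 was 16.7, 0.779 and 0.546 on day 0, where the first library alone was high, 7.64, 1.13 and 4.00 on day 1, 8.23, 6.88 and 5.73 on day 2 and 23.2, 61.5 and 15.8 on day 3. By day 4 it was 1340, 1243 and 1541 in the GFP-positive and 1250, 1439 and 1782 in the GFP-negative libraries. By day 5 it was 1970, 3685 and 1481 in the GFP-positive and 3380, 3160 and 2812 in the GFP-negative libraries. The sorted populations overlapped on both days, and the second GFP-positive library of day 5 stood well above the other 2. An antisense gene, Emx2os, overlaps 264 exonic bases of Emx2 on the opposite strand, and 7.81% of the 31-base words of Emx2 occur in it. Whether strand was used in the counting is not given in the sources used here, and Emx2os averaged 45.5 to 123 normalized counts in the sorted groups.

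Nr2e1 was the latest of the abundant members. It was 12.3, 1.10 and 1.54 on day 0, 2.93, 0.794 and 0 on day 1, 3.97, 3.71 and 2.28 on day 2 and 10.7, 7.89 and 8.22 on day 3. Day 4 gave 250, 224 and 229 in the GFP-positive and 43.5, 74.4 and 54.8 in the GFP-negative libraries. Day 5 gave 1463, 1802 and 1371 in the GFP-positive and 704, 666 and 791 in the GFP-negative libraries. Its 4 sorted groups did not overlap, and both groups of day 5 lay above both of day 4, with the GFP-positive libraries the higher on each day.

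Nkx2-1 was the lowest member, near the detection limit up to day 3 and at most 50.6 normalized counts after it. It was 1.41, 2.56 and 0.897 on day 0, 1.14, 1.86 and 0 on day 1, 0, 2.16 and 0 on day 2 and 2.47, 0 and 3.83 on day 3. On day 4 it was 50.6, 36.7 and 25.2 in the GFP-positive and 30.5, 12.3 and 8.32 in the GFP-negative libraries. On day 5 it was 12.0, 6.98 and 16.5 in the GFP-positive and 13.5, 8.91 and 10.8 in the GFP-negative libraries. Per kilobase of exon its highest group mean was 13.2, against 416 to 4079 for the highest group of each other member.

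**Figure D1:**
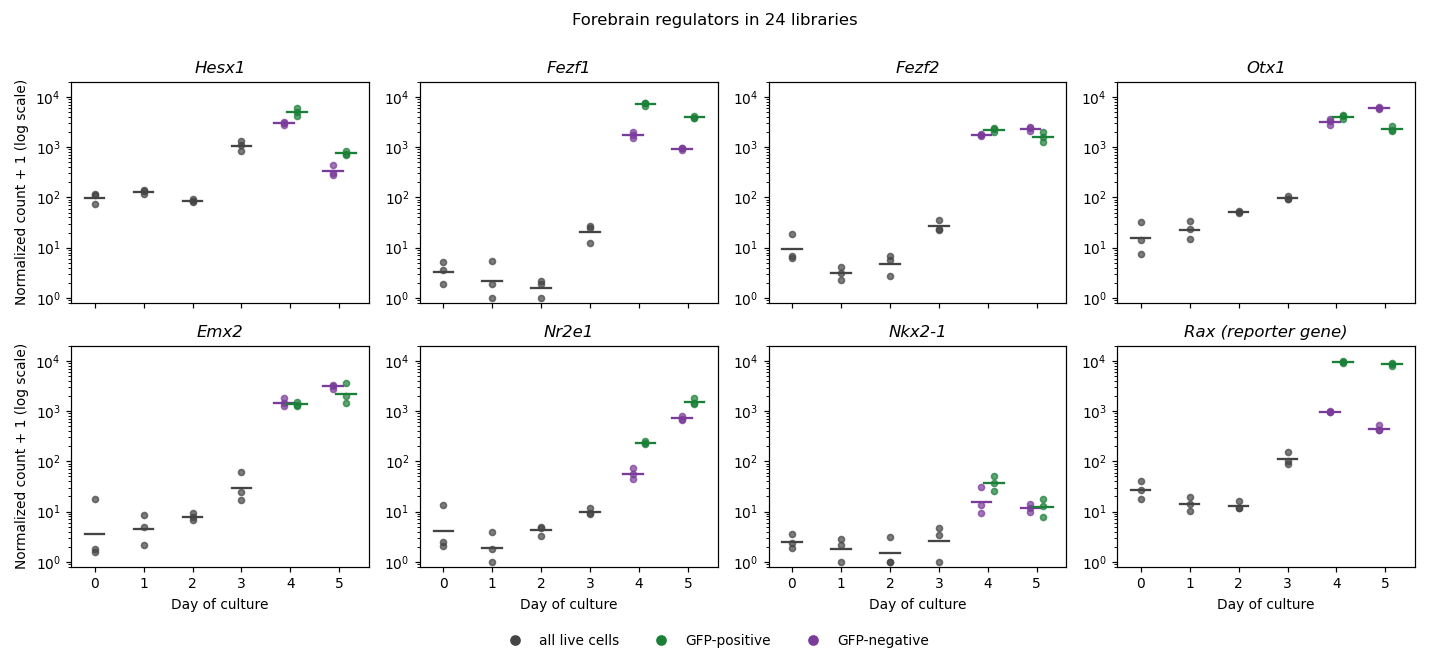
Normalized count + 1 (log axis) against day of culture for the 7 regulators and for Rax, the gene that carries the reporter; each point is a library and each bar the geometric mean of 3. Hesx1 is already near 1000 on day 3, Nr2e1 reaches that range only on day 5, and Nkx2-1 reaches at most 50.6.

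Compared per kilobase of exon, the order of the members differed between days. In GFP-positive cells of day 4 Hesx1 led at 4079 ± 677 (SD, n = 3), followed by Fezf1 at 3002 ± 204, and Otx1 and Fezf2 at 740 ± 76.3 and 729 ± 80.4, which did not differ beyond their spread. Emx2 was at 458 ± 50.7 and Nr2e1 at 63.2 ± 3.64. On day 5 in the same population Fezf1 led at 1643 ± 53.7. Emx2 at 792 ± 386 and Hesx1 at 608 ± 60.7 overlapped within their spread, and Fezf2 at 526 ± 120, Otx1 at 425 ± 62.3 and Nr2e1 at 416 ± 61.2 followed. In GFP-negative cells of day 5 Otx1 at 1121 ± 36.2 and Emx2 at 1038 ± 95.5 led, Fezf2 stood at 770 ± 76.4, and Hesx1 was at 273 ± 67.5.

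The first comparison asked on which day each regulator came on. No member was called between day 0 and day 1, where 0.738% of all genes were called in either direction, and 2 had an unadjusted p under 0.05. None was called between day 1 and day 2 either, against 1.47% of all genes, with 3 at an unadjusted p under 0.05. Between day 2 and day 3, 3 of 7 were called higher, where 0.714% of all genes were called higher. Hesx1 rose by 3.65 ± 0.193 (SE) on the log2 scale, with a limma Benjamini-Hochberg adjusted p of 1.28e-10. Fezf1 rose by 3.66 ± 0.444 with an adjusted p of 1.34e-05 and Fezf2 by 2.49 ± 0.361 with 8.92e-05. Fezf1 and Fezf2 did so from a handful of reads, and the Fezf1 value depended on the pseudocount, at 4.23 with 0.5 and 2.10 with 5. The Fezf2 call was lost without the second day 3 library, at an adjusted p of 0.00115, and the calls of Fezf1 and Fezf2 were lost in a limma fit of the day 2 and day 3 libraries alone, at 0.00255 and 0.00654. Emx2 differed by 1.90 ± 0.660, Nr2e1 by 1.21 ± 0.504, Otx1 by 0.95 ± 0.330 and Nkx2-1 by 0.80 ± 0.612, none of which passed. Markers of other cells also moved between these days, with 3 of 6 mesendoderm markers called higher at a list median of 1.57, 1 of 5 primed epiblast markers higher, and of 4 anterior endoderm markers 1 higher and 1 lower. None of the pluripotent, midbrain and posterior neural, surface ectoderm or neuronal markers was called, and the part of such cells in the result was not tested.

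Set against the starting cells, day 3 held 4 members called higher, against 5.91% of all genes. Hesx1 was higher by 3.43 ± 0.193, Emx2 by 3.01 ± 0.660, Otx1 by 2.68 ± 0.330 and Fezf1 by 2.63 ± 0.444 on the log2 scale. These results rested partly on the first day 0 library. Without it, 6 members were called, with Fezf2 at 2.04 and Nr2e1 at 2.10 added, and Emx2 was 4.15 higher. The Emx2 call was lost when a day 0 library other than the first, or a day 3 library other than the last, was left out. In a limma fit of these 2 days alone Hesx1 was still called, and Fezf1, Otx1 and Emx2 were not, at adjusted p of 0.0139, 0.00792 and 0.0633. Over these days 6 of 7 pluripotent markers were called lower, with a median of -2.77, while 4 of 6 mesendoderm markers were called higher, with a median of 2.41, and 3 of 5 primed epiblast markers higher, with a median of 2.72. Of the anterior endoderm and the neuronal markers 1 each was called higher and 1 lower, and of the midbrain and posterior neural and the surface ectoderm markers 1 each higher and 2 lower. Their part in the result was not tested.

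Measured in log2, 6 of the 7 had their largest daily step in the GFP-positive path between days 3 and 4, Hesx1 being the exception. All 7 members were called higher in these cells than on day 3, where 3.33% of all genes were called higher. Fezf1 rose by 8.49 ± 0.444 on the log2 scale, with a limma Benjamini-Hochberg adjusted p of 3.49e-12, and Fezf2 by 6.37 ± 0.361 with 1.14e-11. Emx2 rose by 5.54 ± 0.660, Otx1 by 5.35 ± 0.330, Nr2e1 by 4.58 ± 0.504 and Hesx1 by 2.23 ± 0.193. Nkx2-1 rose by 3.86 ± 0.612 with an adjusted p of 3.09e-05, to a mean of 37.5 normalized counts, and its call was lost in a fit of these 2 groups alone at 0.00123. The median of the 7 was 5.35, beside -0.01 over all genes tested. Sorted cells are here set against all live cells, and markers of other cells moved over the same step. All 7 pluripotent markers were called lower, with a median of -4.54 and a summed level of 39979 to 50699.8 on day 3, as were 5 of 6 mesendoderm, 3 of 5 primed epiblast, 2 of 6 surface ectoderm, 1 of 4 anterior endoderm and 1 of 8 midbrain and posterior neural markers, while 1 of each of the last 2 lists was called higher and none of 5 neuronal markers was called. Their part in the result was not tested. These day 3 libraries also serve the GFP-negative comparison, so the 2 are not independent.

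In GFP-negative cells 5 of 7 were called higher than on day 3, against 2% of all genes. Fezf1 rose by 6.42 ± 0.444, Fezf2 by 6.04 ± 0.361, Emx2 by 5.65 ± 0.660 and Otx1 by 5.03 ± 0.330. Nr2e1 rose by 2.54 ± 0.504 with a limma Benjamini-Hochberg adjusted p of 0.000996, just inside the threshold, and its call was lost without any 1 of the 6 libraries compared, with adjusted p up to 0.00819. Hesx1 was 1.47 ± 0.193 higher, just under the log2 threshold of 1.5 at an adjusted p of 1.12e-05, and passed without the second day 3 or the second GFP-negative day 4 library. Nkx2-1 differed by 2.62 ± 0.612 at an adjusted p of 0.00397. Over this step 6 of 8 midbrain and posterior neural markers were called higher, with a median of 3.59 and a summed level of 824 to 883 on day 3. In the mesendoderm, anterior endoderm and surface ectoderm lists 1 marker each was called higher, in the pluripotent, primed epiblast and surface ectoderm lists 1 each lower, and their part was not tested.

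As a description, onset was set at the first day on which a group mean reached 10% of the gene's highest group mean. By this measure Hesx1 came on at day 3 and the other 6 at day 4 in the GFP-positive path. In the GFP-negative path Nr2e1 reached it only on day 5. At 25% the days in the GFP-positive path were 5 for Nr2e1 and 4 for every other member. At 50% the days were 4 for Hesx1, Fezf1, Fezf2, Otx1 and Nkx2-1 and 5 for Emx2 and Nr2e1 in the GFP-positive path. In the GFP-negative path Fezf1 did not reach 25%, and Fezf1, Nr2e1 and Nkx2-1 did not reach 50%. By the other measure tried, at least 10 normalized counts in all 3 libraries, the order was Hesx1 on day 0, Otx1 on day 1, Fezf1, Fezf2 and Emx2 on day 3, and Nr2e1 on day 4, with Nkx2-1 reaching it on day 4 in GFP-positive libraries. In the GFP-positive path no member came before Hesx1 and none after Nr2e1 by any of these measures, though several shared a day at 10%, at 25% and at 50%.

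**Figure D2:**
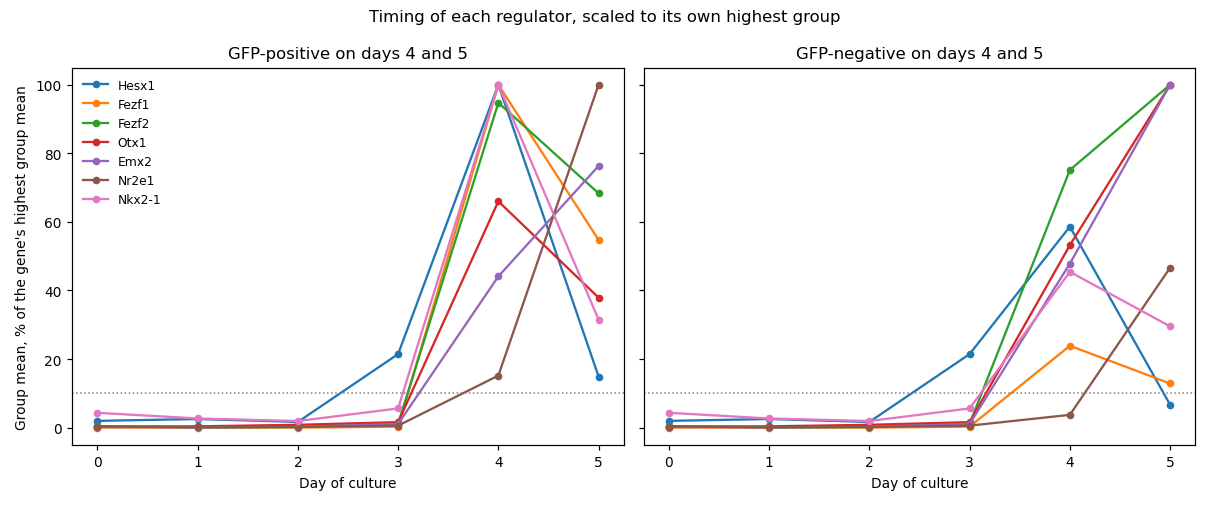
Group means as a percentage of each gene's highest group mean (y axis) against day of culture, following the GFP-positive libraries on days 4 and 5 in the left panel and the GFP-negative ones in the right; the dotted line marks 10%. Hesx1 is at 21.5% on day 3 and returns to 14.9% or 6.69% on day 5, while on day 4 Nr2e1 is at 15.2% in the left panel and 3.72% in the right.

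The second comparison asked how the regulators divided between the sorted populations. On day 4 the libraries of 4 members, Hesx1, Fezf1, Fezf2 and Nr2e1, lay wholly higher with GFP than without, where 17.8% of all genes showed such a separation. No member lay wholly below, against 20.5% of all genes. On day 5 the GFP-positive libraries were all higher for 3 members, Hesx1, Fezf1 and Nr2e1, against 16% of all genes, and all lower for 2, Fezf2 and Otx1, against 20.8%. Emx2 and Nkx2-1 overlapped on both days. In bulk libraries a smaller share of expressing cells and less RNA per cell cannot be told apart.

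Fezf1 showed the widest separation on both days, with a mean 4.19-fold higher with GFP on day 4 and 4.25-fold higher on day 5. The log2 differences were 2.07 ± 0.444 and 2.09 ± 0.444 (SE), with limma Benjamini-Hochberg adjusted p of 0.00202 and 0.00171, outside the threshold of 0.001. Nr2e1 was 4.07-fold higher in GFP-positive cells on day 4, a log2 difference of 2.04 ± 0.504 with an adjusted p of 0.00652, and 2.14-fold higher on day 5, at 1.09 ± 0.504 and 0.168. Hesx1 was 1.71-fold higher on day 4, at 0.76 ± 0.193 and an adjusted p of 0.00817. On day 5 the ratio was 2.23, at 1.18 ± 0.193 and 0.000112, which passed on p and not on size.

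Thus none of the 7 was called between the populations on either day, where 3.96% of all genes on day 4 and 5.01% on day 5 were called in either direction. At an unadjusted p under 0.05 there were 3 members on day 4 and 4 on day 5. The calls depended on which libraries entered the fit. The SD of log2 values for Fezf1 was 0.0467 to 0.196 within the sorted groups and 0.589 to 1.22 within the groups of days 0 to 3, where it was read from a few counts, and the fit pools all 8. In limma fits of the 2 groups compared alone, Fezf1 was called on day 4 at an adjusted p of 4.83e-05 and on day 5 at 1.94e-06, and Nr2e1 on day 4 at 0.000601. The same 3 calls were made by the fit of all groups without the first day 0 library, at 0.000916, 0.000805 and 0.000124. In the limma fits of the 2 groups alone Nr2e1 on day 5 had an adjusted p of 0.00037, passing on p and not on size. Hesx1 on day 5 was at 0.00147 there and passed on neither.

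The other members were closer between the populations. On day 4 the log2 difference, GFP-positive minus GFP-negative, was 0.33 with a 95% interval of -0.42 to 1.08 for Fezf2, 0.31 with -0.37 to 1.00 for Otx1, -0.11 with -1.48 to 1.27 for Emx2 and 1.24 with -0.04 to 2.51 for Nkx2-1. On day 5 it was -0.57 with -1.32 to 0.18 for Fezf2, -0.49 with -1.87 to 0.88 for Emx2 and 0.03 with -1.24 to 1.31 for Nkx2-1. These intervals still allow differences above 2-fold for Fezf2, Emx2 and Nkx2-1, and the Otx1 interval of day 4 just reaches 2-fold, so the test does not show equal levels. Otx1 was 2.64-fold higher in GFP-negative cells on day 5, a log2 difference of -1.41 ± 0.330 with a limma Benjamini-Hochberg adjusted p of 0.00397, short of both thresholds.

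**Figure D3:**
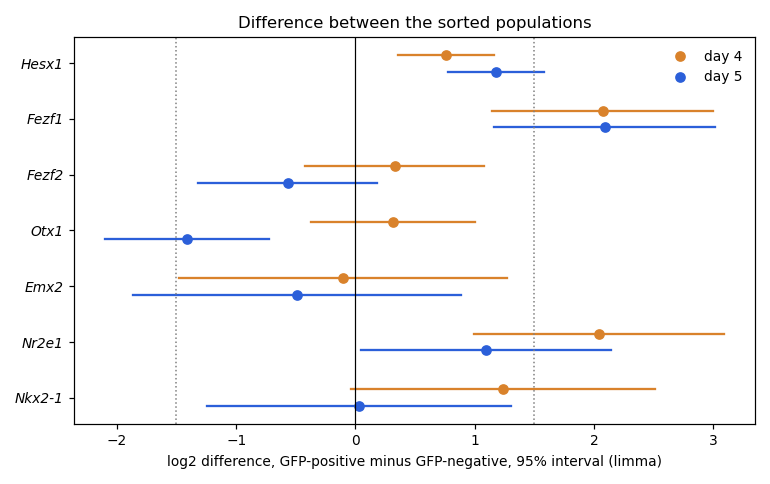
Log2 difference between GFP-positive and GFP-negative libraries for each regulator on day 4 and day 5, with 95% intervals from limma; dotted lines mark the size threshold of 1.5. Fezf1 lies near 2.1 on both days, while Otx1 lies at 0.31 on day 4 and -1.41 on day 5.

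Markers of other cell types moved with the gates. All 7 pluripotent markers were called lower in GFP-positive cells on both days, and their summed level was 1393 to 2790 in GFP-positive against 16880 to 18992 in GFP-negative libraries on day 4 and 437 to 636 against 6932 to 8075 on day 5. All 6 mesendoderm markers were also called lower on both days, at 315 to 656 against 6277 to 9097 on day 4 and 203 to 285 against 3203 to 4194 on day 5. Of 8 midbrain and posterior neural markers 5 were called lower on both days and 1, Pax2, was called higher on day 5. The sums were 3622 to 3985 against 5199 to 6872 on day 4 and 4915 to 5486 against 7999.8 to 9971 on day 5. Pax2 made up most of the GFP-positive sums, at 3288 ± 132 against 1773 ± 204 on day 4 and 4379 ± 227 against 944 ± 178 on day 5. Every other marker of this list had a lower mean with GFP on both days. Of 4 anterior endoderm markers 2 and 3 were called lower, at 973 to 1211 against 2341 to 2882 on day 4 and 878 to 994 against 2572 to 2879 on day 5. Of 6 surface ectoderm markers 3 and 2 were called lower, at 4990 to 5638 against 10648 to 14426 on day 4 and 3192 to 3457 against 8419 to 12568 on day 5. Of 5 primed epiblast markers 2 were called lower on both days, with sums of 44582 to 47188 against 53231 to 63654 on day 4 and 27654 to 30945 against 23014 to 25362 on day 5. The largest part of the GFP-positive sums was Sall2, at 27495 ± 1252 against 13440 ± 301 on day 4 and 23166 ± 1645 against 13287 ± 863 on day 5. Every other marker of this list had a lower mean with GFP on both days. None of 5 neuronal markers was called on either day, at 4886 to 5437 against 3125 to 3446 on day 4 and 2573 to 2737 against 2376 to 2759 on day 5. No marker of these lists was at 0 in all libraries of a sorted group. The part of such cells in the differences of the 7 regulators was not tested.

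The change of the gate difference from day 4 to day 5 was tested as an interaction. No member was called, against 0.109% of all genes, and 1, Otx1, had an unadjusted p under 0.05. For Otx1 the day 5 difference minus that of day 4 was -1.72 ± 0.466 on the log2 scale, with a limma Benjamini-Hochberg adjusted p of 0.0834, and in a fit of the 4 sorted groups alone the adjusted p was 0.000248 and the gene was called. For Fezf2 it was -0.90 ± 0.510 with 0.655, or 0.0304 in the fit of the sorted groups. For Fezf1 it was 0.01 ± 0.628, for Hesx1 0.42 ± 0.273 and for Nr2e1 -0.95 ± 0.713.

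From day 4 to day 5 Hesx1 and Nr2e1 went in opposite directions in both populations. In GFP-positive cells Hesx1 was the 1 member called lower, against 0.89% of all genes, and Nr2e1 the 1 called higher, against 0.595%. Hesx1 fell by 2.74 on the log2 scale (SE 0.193), with a limma Benjamini-Hochberg adjusted p of 1.03e-08, and its mean on day 4 was 6.71-fold that of day 5. Nr2e1 rose by 2.71 ± 0.504, a 6.59-fold higher mean, with an adjusted p of 0.000937. The Nr2e1 call was lost without any 1 of the 6 libraries compared, with adjusted p up to 0.00681, whereas without the first day 0 library it was 8.53e-06. In GFP-negative cells Hesx1 was again the 1 called lower, by 3.15 (SE 0.193), against 0.509% of all genes. Nr2e1 was the 1 called higher, by 3.65 ± 0.504 with an adjusted p of 4.65e-05, against 0.762%, and both calls held in each of the 7 fits that left out a library. Fezf1 differed by -0.87 and -0.88 (SE 0.444) in the GFP-positive and GFP-negative cells, and Otx1 by -0.80 and 0.92 (SE 0.330), none of which passed. The 2 changes share no library. Over the same step 3 of 5 primed epiblast markers were called lower in each population, with medians of -2.09 in both, as were 1 of 7 pluripotent, 1 of 6 surface ectoderm and 1 of 5 neuronal markers in each, and 1 of 6 mesendoderm markers with GFP and 2 without. Of 8 midbrain and posterior neural markers 1 was called higher with GFP, and no anterior endoderm marker was called. Their part in the changes of Hesx1 and Nr2e1 was not tested.

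Paralog pairs showed how unevenly related genes were used, as ratios of normalized counts per kilobase of exon within a library, given as a description with no test. Fezf1 over Fezf2 was 0.970 ± 0.326 (SD, n = 3) on day 3, 1.24 ± 0.153 in GFP-negative and 4.15 ± 0.569 in GFP-positive libraries of day 4, and 0.507 ± 0.0692 and 3.22 ± 0.643 on day 5. The 3 GFP-positive ratios were above the 3 GFP-negative ones on both days. Fezf1 and Fezf2 share no 31-base word with any other gene of the annotation, so reads of that length separate them. Otx1 over Otx2, the homeodomain gene that also acts in the early anterior brain, was 0.00540 ± 0.000430 on day 3, 0.199 ± 0.0378 and 0.205 ± 0.0223 without and with GFP on day 4, and 0.429 ± 0.00899 and 0.0997 ± 0.00499 on day 5. Otx2 itself was 12732 ± 1086 and 15258 ± 99.1 normalized counts on day 4 and 11035 ± 254 and 17952 ± 2233 on day 5 in the same order. Emx2 over Emx1, its dorsal telencephalic relative, was 55.6 ± 13.2 and 11.5 ± 1.74 on day 4 and 52.6 ± 5.03 and 24.7 ± 15.2 on day 5, so Emx2 was the more abundant of the pair in each of these sorted libraries. The GFP-positive ratios were below the GFP-negative ones on both days. Emx1 was low, at 21.0 ± 9.66 normalized counts in the GFP-negative libraries of day 4.

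**Figure D4:**
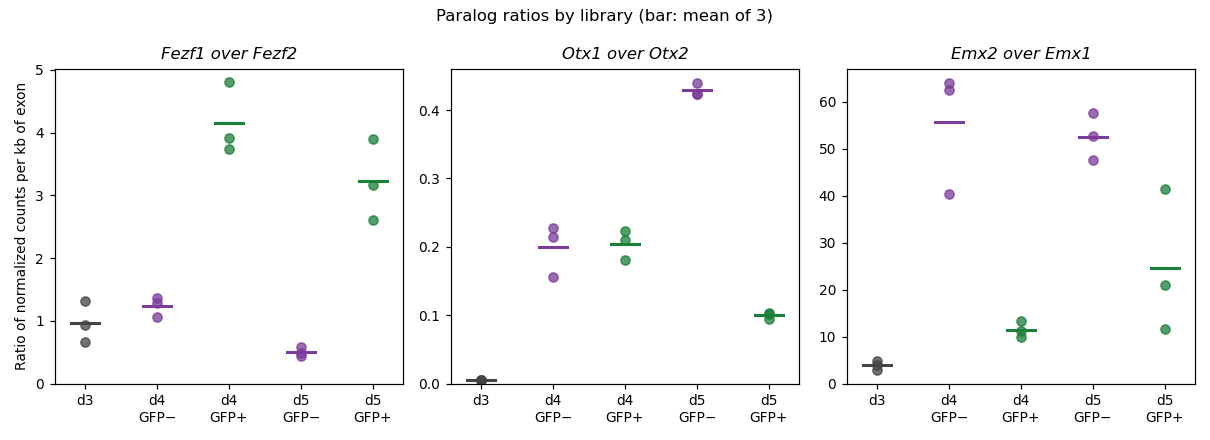
Ratio of normalized counts per kilobase of exon for 3 paralog pairs, by library (points) with the mean of 3 (bar), on day 3 (d3) and in the sorted populations of days 4 and 5. Fezf1 over Fezf2 and Emx2 over Emx1 separate GFP-positive from GFP-negative libraries on both days, in opposite directions, and Otx1 over Otx2 does so on day 5.

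Other genes of the same territories were taken as whole lists. Between the gates 0.328% of all genes were called higher and 3.63% lower with GFP on day 4, and 0.4% and 4.61% on day 5. Of 18 telencephalic regulators 17 were tested, and on day 4 there were 4 called lower, with a list median of -0.30 beside 0.01 for all genes tested. Emx1 was called higher, by 2.09 ± 0.363 on the log2 scale. Dlx6 and Dlx5, genes of the ventral telencephalon and also of ectoderm at the neural plate border, fell by 2.78 and 2.71 on the log2 scale (SE 0.495 and 0.472), as did Bcl11b, a zinc-finger gene of cortical neurons, by 2.35 (SE 0.271). By day 5 there were again 4 called lower, including the proneural gene Neurog2 at 8.98 ± 1.04 against 92.8 ± 9.99 and Wnt8b, a ligand of the medial forebrain, at 1117 ± 319 against 5718 ± 232. The list median was -0.85.

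Of 14 hypothalamic regulators 13 were tested. On day 4 Six6 was called higher and Foxb1, a mammillary gene, lower, at 176 ± 33.3 against 1144 ± 123. By day 5 there were 4 called higher and 4 lower, with a median of -0.88. Six6 was higher at 5550 ± 746 against 178 ± 41.7, and Vax1, a ventral forebrain and optic stalk gene, at 182 ± 40.3 against 16.0 ± 2.64. Shh, the ventral midline signal, was lower at 26.8 ± 6.58 against 330 ± 125, and Bsx, a hypothalamic homeobox gene, at 6.37 ± 5.70 against 50.4 ± 5.20. Nkx2-1, the member that marks this territory, was at 11.8 ± 4.75 against 11.1 ± 2.30 on that day.

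The early anterior neural list, with Otx2, Six3, Lhx2, Rax and Pax6 among its 11 genes, had 4 called higher in GFP-positive cells on each day, Rax, Lhx2, Pax6 and Six3, and none lower. Together with Six6 these make the 5 eye-field genes, of which all 5 were called higher on both days. Of these, Rax carried the reporter the cells were sorted on, so its difference was set by the gate. Between day 2 and day 3, when Hesx1, Fezf1 and Fezf2 were called, 5 of the 11 early anterior genes were called higher, where 0.714% of all genes were. In the same contrast 3 of 6 mesendoderm markers, 1 of 17 telencephalic and 0 of 13 hypothalamic regulators were called higher, and the difference between the lists was not tested.

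The corepressors with which several members act had summed levels of 76141 to 89372 in the sorted libraries. Of 15 listed names 14 were in the table and tested, and none was called higher between the gates. Bcl11a was called lower on both days, by 3.86 (SE 0.333) and 1.85 (SE 0.333) on the log2 scale, and Tle2 on day 5, at 21.5 ± 6.50 against 179 ± 32.3. Of 10 genes reported elsewhere to lie downstream of members, such as Cdkn1a for Nr2e1, 9 were tested. None was called higher in GFP-positive cells, 1, Bcl11b, was lower on day 4 and 3, Shh, Neurog2 and Bcl11b, were lower on day 5. The list medians were -0.76 and -1.79.

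The genes most like each member were ranked by Pearson correlation of log2(normalized count + 1) over the 24 libraries among 13103 genes with a highest group mean of at least 100, as a description in which the libraries of a group share their day and gate. Fezf2 was closest to Sp8, a zinc-finger gene of the anterior forebrain (0.990), then Papss1 (0.987) and Dmrt3 (0.986). Otx1 was closest to Chst2 (0.990), Lfng (0.984) and Dll1 (0.983), the last a Notch ligand and Lfng a modifier of Notch receptors. Fezf1 was closest to Dpysl4 (0.982), Lmo1 (0.981) and Kcng1 (0.979), Nr2e1 to Phactr2 (0.981), Cmtm3 (0.978) and Orai2 (0.976), and Emx2 to Ptn (0.987), Vstm2b (0.981) and Slc44a5 (0.981). The best matches were weaker for Hesx1, Cryba1 (0.955), Ermn (0.941) and Foxd4 (0.938), and for Nkx2-1, Nptx1 (0.925), Rgmb (0.911) and Chrm4 (0.905). The choice depended on the measure, since 0 to 2 of the 3 genes recurred when group means or rank correlation were used.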

How the data were processed

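The authors quantified poly(A) reads with kallisto 0.43.1 against mm10 and deposited normalized counts per gene scaled with DESeq2, as the submitters' processing notes give it. The authors deposited this signal, normalized counts per gene and library, after scaling, so the values are neither raw reads nor whole numbers. In the 24 libraries 45.8% to 76.8% of low values lay within 0.1 read of a whole multiple, so reads were not recovered and no count test was run. Estimated depth was 37000000 to 54600000 reads per library.

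A gene was kept where 3 or more libraries reached 10 normalized counts (21005 of 49705). limma 3.58.1 (R 4.3.3) was fitted to log2(value + 1) with a variance trend, all 8 groups in 1 fit and no replicate block, with Benjamini-Hochberg adjustment over all genes tested, and was tested on simulated data. The thresholds, an adjusted p of 0.001 and an absolute log2 change of 1.5, are those of the study's methods. The series describes the triplicates as biological. No pair of libraries was identical. Other pseudocounts, filters, a quantile scaling, variance settings, a replicate block, only the groups compared and leaving out each library were tried.

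The members and gene lists were chosen with earlier results of these data known. Named were the 7 members, the listed genes called between gates (at most 4 per list, by size), the eye-field genes, Otx2 and Emx1, and the 3 most correlated genes per member. Pax2 and Sall2 were also named, as the markers higher with GFP in lists otherwise lower. Some listed genes called between gates are not reported here. Exon lengths and shared words came from GENCODE M21, promoters from RefSeq GRCm38.p6. The study's account and the sample labels name different media for the first organoids, and the labels' medium is given.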

Additional observations from a re-analysis of the deposited data

Results flagged for a closer look

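Otx1 and Fezf2 stand out by how the sorted populations compared on day 4 and on day 5. For Otx1 the log2 difference, GFP-positive minus GFP-negative, of day 5 minus that of day 4 was -1.72, with a limma Benjamini-Hochberg adjusted p of 0.0834 over all groups and 0.000248 in the fit of the 4 sorted groups. Its libraries overlapped on day 4, and on day 5 each GFP-positive library was below each GFP-negative one. The value for Fezf2 was -0.90, with an adjusted p of 0.655 over all groups and 0.0304 in the fit of the sorted groups. Its GFP-positive libraries were all higher on day 4 and all lower on day 5. Of all genes 17.8% were wholly higher with GFP on day 4 and 20.8% wholly lower on day 5. The share of genes that did both was not computed.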

How the results depend on the processing

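Of 110 recomputed counts of called members 95 stayed within 1.5 times the reported one and 15 did not. Of 744 recomputed values of single members 707 kept their direction and their side of the threshold, 18 lost and 18 gained a call, and 1 reversed: Nkx2-1 between day 0 and day 3, -0.12 with a pseudocount of 0.5. The GFP-positive change from day 4 to day 5 had 1 called member, Hesx1, in place of 2 with a pseudocount of 0.5, no filter, quantile scaling or no variance trend. Between gates on day 4, 2 were called with a pseudocount of 5, with thresholds of 0.05 and 1, and with only the groups compared. On day 5, 1 was called with a pseudocount of 5 and with only the groups compared, and 3 at the thresholds of 0.05 and 1. At these thresholds 1 was also called from day 0 to day 1 and 1 from day 1 to day 2. With only the groups compared 1 was called from day 2 to day 3 and 1 from day 0 to day 3, where 5 members were tested, and 1 for the change of the gate difference. Leaving out 1 library gave 0 to 2 called between gates on day 4, 0 to 1 on day 5, with the higher counts without the first day 0 library, and 1 to 2 for the GFP-positive change. Of the 23 calls of single members 19 were kept in each fit without a library and 4 were lost in at least 1. Same-numbered libraries had a mean correlation of -0.000542 over 28 pairs of groups, with -0.0622 between the gates of day 4 and 0.0266 between those of day 5. The replicate block changed no call and no count, with 7 of 7 members still higher in GFP-positive day 4 than day 3 cells. In the paper the samples of days 4 and 5 were sorted into both gates. The block gave each replicate number the same effect in all groups, so a pairing within a day was not modelled. Quantile scaling moved the median of all genes by less than 0.1 in each comparison. Members at a few counts on days 0 to 2 (Fezf1, Fezf2, Nr2e1, Emx2, Nkx2-1) are limited by depth there.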
